A study of Mus musculus with 6 samples.

Results

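The interferon-inducible p200 genes Ifi202b, Ifi203, Ifi204 and Ifi205 were followed over 6 Illumina bead arrays of RNA from mouse back skin wounds. Their probes were chosen by the gene symbol of the platform, and those with a detection p-value below 0.01 on any of the 6 arrays, which are called detected here, were kept. The platform held 8 such probes, and 6 of them were detected, among 18854 detected probes of 45281 in all. Of these 6 probes, 2 belonged to Ifi202b, 1 to Ifi204 and 3 to Ifi205, and no probe carried the symbol Ifi203. The family was selected on the low Ifi205 signal of the array from the wound given adenovirus-GFP, so every value of the adenovirus arrays below is a description without a test.

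All wounds were full thickness, were taken 8 days after injury and came from mice with a C57/BL6 background. The stabilized wound (1 array) came from a mouse of 2 months with β-catenin flox/flox (exon 3) that was given adenovirus-CRE, and the GFP wound (1 array) from a mouse of the same genotype and age that was given adenovirus-GFP. The knockdown wounds (2 arrays) came from mice of 5 months with β-catenin flox/flox (exons 2-6) and Cre-Esr1 that received tamoxifen, and the tamoxifen control wounds (2 arrays) from mice of 4 months with β-catenin flox/flox (exons 2-6) and no Cre in the label, also with tamoxifen. Deletion of exon 3 removes the sites through which β-catenin is marked for breakdown, and Cre-Esr1 is a recombinase that tamoxifen activates. The labels give neither the promoter that drives Cre-Esr1 nor the cells that the adenovirus reached. Age goes with genotype in the tamoxifen model, and agent, age and floxed allele all differ between the adenovirus and the tamoxifen arrays, so their parts in any such difference cannot be told apart.

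The p200 proteins, also called HIN-200 or PYHIN proteins, bind DNA through a HIN domain, and most carry a pyrin domain through which they join other proteins. Their genes lie side by side on mouse chromosome 1 and are induced by interferons, signalling proteins of antiviral and inflammatory defence. IFI204 takes part in sensing foreign DNA upstream of STING and in the differentiation of macrophages, IFI205 is found in macrophages and is known to raise expression of the inflammasome adaptor gene Pycard, and IFI202B, which has no pyrin domain, binds cytosolic DNA and counteracts the inflammasome sensor AIM2.

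Promoter sequences are shown because the family is read below against other interferon-stimulated genes, many of which are known to respond to interferon through short promoter elements. RefSeq windows of 300 bases on GRCm38.p6, from 250 bases before to 50 after the gene's start, were found for 12 of 13 p200 genes looked up, all but Ifi204, and 14 windows were read in all. The core of the interferon-stimulated response element was searched on both strands as GAAA, any 2 bases and GAAA again. It lay in a window of 9 of these genes and in 10 of the 14 windows, against 3.44% of the 32851 promoters of the mouse table. The windows of the family are not independent, as those of Ifi203 and Mndal have the same letters around the core. The 7 genes Ifi203, Ifi206, Ifi207, Ifi208, Ifi213, Ifi214 and Mndal held GAAATCGAAA, and Ifi205 and Ifi211 held GAAATTGAAA. A match is a description of the letters and was not tested as a binding site. The stretches around the core are given for genes that are measured below or are members, with the core in capitals.
Ifi205 (chr1:174031864-174031897, minus strand): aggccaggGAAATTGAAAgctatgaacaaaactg
Ifi203 (chr1:173942502-173942535, minus strand): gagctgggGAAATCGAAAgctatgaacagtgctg
Mndal (chr1:173880198-173880231, minus strand): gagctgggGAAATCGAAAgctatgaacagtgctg
Ifi207 (chr1:173741825-173741858, minus strand): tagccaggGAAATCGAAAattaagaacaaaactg
Ifi213 (chr1:173599320-173599353, minus strand): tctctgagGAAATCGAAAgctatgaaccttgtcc
Ifi214 (chr1:173536011-173536044, minus strand): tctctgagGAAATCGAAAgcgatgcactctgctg

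The whole windows of the members Ifi205 and Ifi202b are given next. The Ifi205 window held GAAATTGAAA at position -134 from the start and, on the other strand, a second match at position 24. The Ifi202b window held no response element core. Like Ifi202b, Mndal and Ifi214, which held the core, read higher on both adenovirus arrays than on all tamoxifen arrays, as described further on. No relation between letters and levels was tested. The matches of Ifi205 are in capitals.
Ifi205 (chr1:174031706-174032005, minus strand): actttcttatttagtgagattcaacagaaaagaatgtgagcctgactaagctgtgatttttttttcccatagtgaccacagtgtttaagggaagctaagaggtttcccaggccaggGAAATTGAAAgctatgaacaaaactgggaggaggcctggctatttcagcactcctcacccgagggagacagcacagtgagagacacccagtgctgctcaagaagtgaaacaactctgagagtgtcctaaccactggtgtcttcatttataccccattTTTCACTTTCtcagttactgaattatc
Ifi202b (chr1:173982795-173983094, minus strand): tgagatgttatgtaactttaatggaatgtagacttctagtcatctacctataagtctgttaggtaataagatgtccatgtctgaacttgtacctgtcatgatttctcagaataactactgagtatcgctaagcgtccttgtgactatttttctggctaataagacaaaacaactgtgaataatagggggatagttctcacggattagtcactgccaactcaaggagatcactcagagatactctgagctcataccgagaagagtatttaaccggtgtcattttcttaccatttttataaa

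Between 15883 and 16681 probes were detected on each array. The GFP array had a mean deposited intensity of 544.4, against 648.7 to 714.8 on the other arrays. The brightest probe of Ctnnb1, the gene of β-catenin, had log2 levels of 11.73 and 11.84 in knockdown wounds and 11.77 and 12.07 in tamoxifen controls, a difference of -0.13 ± 0.17 (SE) with an adjusted p of 0.818 in limma's test. The labelled lowering of β-catenin was therefore not seen at this probe, whose place relative to the floxed exons was not analysed here, and the same probe read 11.49 in the stabilized wound and 11.56 in the GFP wound. The levels below are log2 values of background-corrected, quantile-normalized intensity, on which a step of 1 is a doubling.

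Ifi205 was high in the stabilized wound, intermediate in the tamoxifen model and low in the GFP wound at its brighter probes. The brightest, ILMN_2437969, had a log2 level of 12.00 in the stabilized wound, 6.50 in the GFP wound, 9.71 and 10.39 in the knockdown wounds, and 11.36 and 10.60 in the tamoxifen controls. Its deposited intensity was 4874.8 in the stabilized wound and 182.8 in the GFP wound, and ran from 1039.6 to 2858.4 on the tamoxifen arrays. The GFP array was the lowest by 3.21 log2 units, and it still detected the probe. The stabilized wound was 45.1-fold higher than the GFP wound on the normalized scale, 26.7-fold higher in the intensities as deposited, and 19.8-fold higher when the background was not corrected.

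The probe ILMN_1245200 gave the same order of arrays for Ifi205. Its log2 level was 8.85 in the stabilized wound, 4.74 in the GFP wound, 7.02 and 7.86 in the knockdown wounds, and 8.44 and 8.02 in the tamoxifen controls. It was not detected on the GFP array, so that the stabilized wound stood at least 6.47-fold higher, where the bound is set by the lowest signal detected on that array. The gap between the GFP array and the next was 2.28 log2 units with this probe, and 0.90 without background correction. Among 18854 probes these gaps ranked 3rd for ILMN_2437969 and 6th for ILMN_1245200, and among the 17590 probes detected on at least 1 adenovirus array their differences between the stabilized and the GFP wound ranked 2nd and 4th. The ranks describe how the family came to be chosen.

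The dim probe of Ifi205, ILMN_2680076, did not share that order. It read 6.22 in the stabilized wound, 5.34 in the GFP wound, 5.12 and 6.36 in the knockdown wounds, and 6.19 and 6.28 in the tamoxifen controls, and it was detected on 4 arrays. The first knockdown array was the lowest, not the GFP array, and since the GFP array did not detect the probe the stabilized wound was at least 1.05-fold higher. Its lowest detection p-value over the 6 arrays was 0.00214, the same as for the Ifi204 probe, and these were the probes nearest the limit of 0.01 from inside. The probes just outside were ILMN_2608350 of Ifi202b at 0.185 and ILMN_2623314 of Ifi204 at 0.863.

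Ifi204 was low on the GFP array too, but near the limit of detection throughout. Its probe ILMN_3010089 read 6.23 in the stabilized wound, 5.00 in the GFP wound, 5.44 and 5.69 in the knockdown wounds, and 6.24 and 6.30 in the tamoxifen controls. It was detected in the stabilized wound and in both tamoxifen controls, and on neither the GFP array nor the knockdown arrays. The stabilized wound was at least 1.06-fold higher than the GFP wound, and the measured values lay 2.36-fold apart, or 1.34-fold without background correction. The stabilized wound and the tamoxifen controls were close together, while the GFP array was the lowest, 0.44 log2 units below the next.

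Ifi202b, whose level is known to differ between inbred mouse strains, had another pattern, with both adenovirus wounds alike and high. Its probe ILMN_3014753 read 10.43 in the stabilized wound and 10.34 in the GFP wound, 4.77 and 4.84 in the knockdown wounds, and 4.70 and 4.53 in the tamoxifen controls. It was detected on both adenovirus arrays and on none of the 4 tamoxifen arrays, and the adenovirus wounds stood at least 20.8-fold above the tamoxifen wounds. This probe was kept only through the adenovirus arrays, so the filter largely set the direction of its difference. Among all detected probes 94, or 0.499%, were detected on both adenovirus arrays and on no tamoxifen array. The second detected probe, ILMN_3085992, read 9.65 in the stabilized wound and 9.69 in the GFP wound, 6.61 and 7.17 in the knockdown wounds, and 8.18 and 7.39 in the tamoxifen controls. Both adenovirus arrays were again above all 4 tamoxifen arrays, as for 12.6% of all probes. The probes of Ifi202b disagreed on whether the tamoxifen wounds held its RNA, since ILMN_3085992 was detected on all 6 arrays.

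The low Ifi205 signal of the GFP array was therefore not shared by Ifi202b and was shared by Ifi204 only near the background. The GFP array was the lowest in 3 of the 6 member probes, against 24.8% of all probes, and the lowest by at least 2-fold in 2 of them, both of Ifi205, against 0.366%. The measured values were at least 2-fold higher in the stabilized than in the GFP wound in 3 of the 6 probes, against 4.46% of probes detected on these arrays, and at least 2-fold lower in 0, against 6.15%, while any higher value was found in 5 of the 6, against 55%. These counts rest on the contrast that chose the family. The stabilized wound minus the GFP wound came to 0.09 and -0.04 log2 units for the probes ILMN_3014753 and ILMN_3085992 of Ifi202b, and to 0.69 and 0.59 when the arrays were centred on their medians in place of quantile normalization, a scaling that moved the median of all probes to 0.58, against 0.05. Over the 6 arrays, Pearson's r was 1.00 between the brighter Ifi205 probes, 0.90 and 0.92 between them and Ifi204, and between -0.36 and 0.03 for Ifi202b with the 3 Ifi205 probes. These r share the same 6 arrays, and the GFP array weighs heavily in those of Ifi205. How far near-identical p200 transcripts bind each other's probes was not analysed, as probe sequences were not used here.

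**Figure D1:**
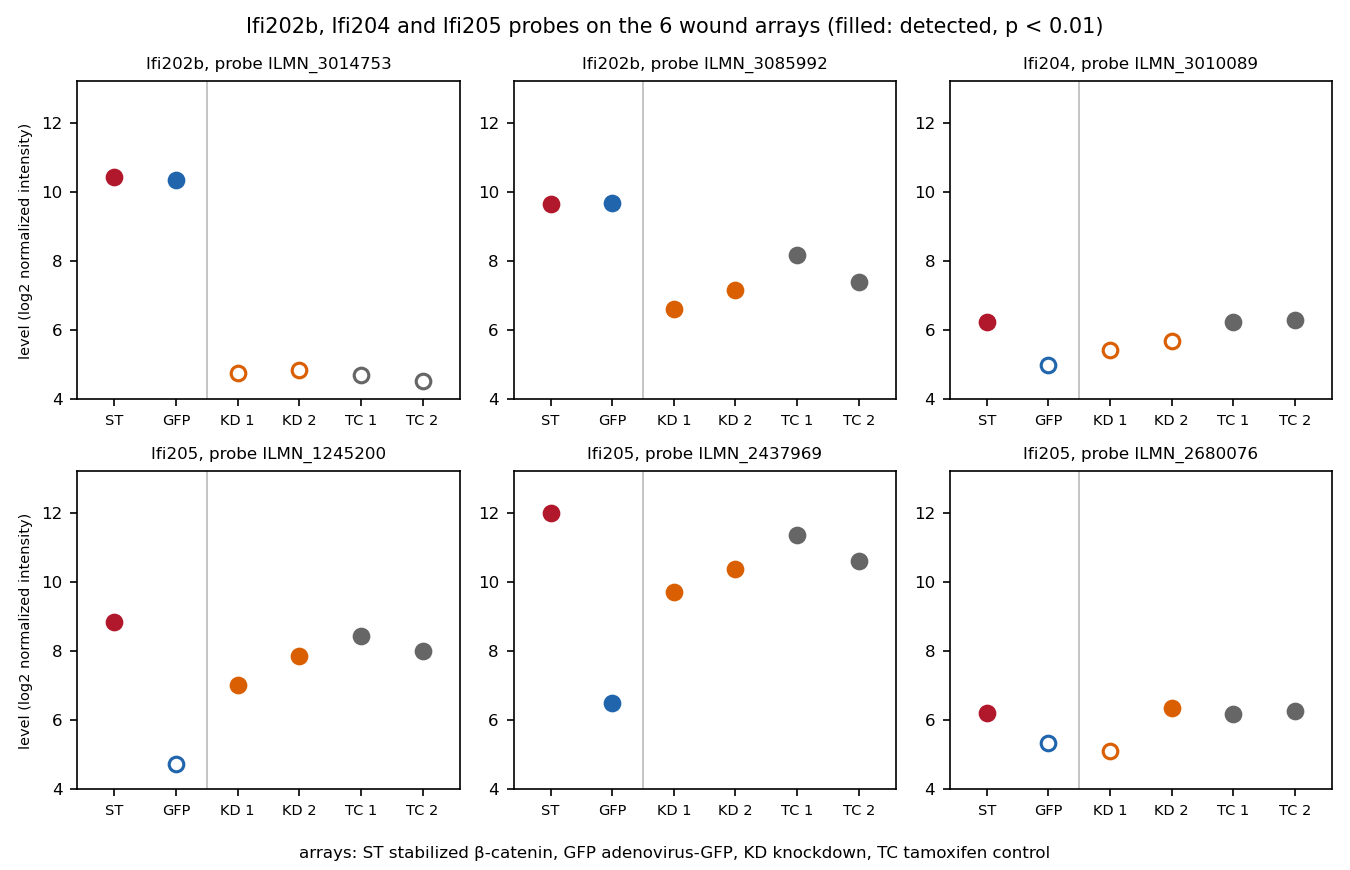
Log2 normalized intensity (vertical axis) of each detected probe of Ifi202b, Ifi204 and Ifi205 on the 6 arrays, 1 point per array, with filled points for detection p under 0.01 and open points for arrays that did not detect the probe. The GFP array reads 6.50 for the Ifi205 probe ILMN_2437969, under all other arrays, and 10.34 and 9.69 for the Ifi202b probes, near the stabilized array.

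The knockdown wounds were compared with the tamoxifen controls to ask whether the members follow a lowering of β-catenin, and this comparison has replicates. No member probe passed the limma test, where 0 of 18854 probes (0%) had an adjusted p under 0.05 and the smallest adjusted p was 0.218. At an unadjusted p under 0.05 there were 1942 probes, or 10.3%, of which the lower ones made up 4.78% of all probes and the higher ones 5.52%. With 2 arrays a group these p-values measure only the spread between the samples of these groups.

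The Ifi204 probe ILMN_3010089 averaged 5.56 ± 0.18 in knockdown wounds and 6.27 ± 0.05 in tamoxifen controls (SD, n = 2 each). The difference was -0.70 ± 0.16 log2 units (SE) with an unadjusted p of 0.00664 and an adjusted p of 0.264 in limma's test, and as no knockdown array detected the probe the knockdown wounds were at least 1.21-fold lower. For Ifi205, ILMN_2437969 averaged 10.05 ± 0.48 in knockdown wounds and 10.98 ± 0.54 in tamoxifen controls (SD, n = 2 each), a difference of -0.93 ± 0.35 with an adjusted p of 0.466 in limma's test. The other Ifi205 probes differed by -0.79 ± 0.33 (ILMN_1245200, adjusted p of 0.51 in limma's test) and -0.50 ± 0.42 (ILMN_2680076, adjusted p of 0.728).

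Ifi202b at ILMN_3085992 averaged 6.89 ± 0.39 in knockdown wounds and 7.78 ± 0.56 in tamoxifen controls (SD, n = 2 each), a difference of -0.90 ± 0.33 with an adjusted p of 0.465 in limma's test. Its other probe was at background on all 4 arrays and gave no fold. Both knockdown arrays lay below both tamoxifen controls at 4 of the 6 member probes, against 20.4% of all probes, and the difference was below 0 at 5 of the 6, against 50.1%. The exceptions were the background-level Ifi202b probe, the 1 of 6 with both knockdown arrays above both controls (22.2% of all probes), and ILMN_2680076 of Ifi205, where the groups overlapped and where the difference turned to 0.13 without the first knockdown array. The other 4 probes are not independent, as both brighter Ifi205 probes are among them and moved together over the arrays. The Ifi204 probe, also among them, was not detected on any knockdown array. For Ifi205 the order of levels at ILMN_2437969 ran from the stabilized wound through the tamoxifen controls and the knockdown wounds to the GFP wound. The higher knockdown array, at 10.39, and the lower tamoxifen control, at 10.60, were closer to each other than the SD within either group.

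The rest of the p200 cluster was read through 9 further genes, of which 5 were measured, Aim2, Ifi207, Ifi213, Ifi214 and Mndal. Ifi207 had the highest probe signal of these, with log2 levels of 12.52 in the stabilized wound, 11.05 in the GFP wound, 10.38 and 10.28 in the knockdown wounds, and 11.19 and 10.72 in the tamoxifen controls. The stabilized wound was 2.77-fold higher than the GFP wound, yet the GFP array stood above both knockdown arrays. Ifi213 at its brighter probe, ILMN_1219896, read 9.08 in the stabilized wound, 7.58 in the GFP wound, 8.04 and 7.56 in the knockdown wounds, and 8.03 and 8.36 in the tamoxifen controls, which put the stabilized wound 2.82-fold above the GFP wound.

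The dimmer Ifi213 probe, ILMN_2526938, was the other probe of the cluster that the GFP array failed to detect while the 5 other arrays detected it. It read 8.47 in the stabilized wound, 5.91 in the GFP wound, 6.89 and 6.44 in the knockdown wounds, and 7.28 and 7.51 in the tamoxifen controls, and the stabilized wound was at least 4.99-fold higher than the GFP wound. The GFP array lay 0.53 log2 units below the next at this probe. At ILMN_1219896 it lay 0.02 above the second knockdown array, and under median centring 0.47 below all others.

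At the brightest probes of Mndal and Ifi214, 2 of the 5 genes, both adenovirus wounds lay above all tamoxifen wounds, as at Ifi202b and in 13% of all genes. Mndal read 9.51 in the stabilized wound, 8.71 in the GFP wound, 7.78 and 7.14 in the knockdown wounds, and 8.08 and 7.72 in the tamoxifen controls. Unlike Ifi202b, it was 1.74-fold higher in the stabilized than in the GFP wound. Ifi214 read 6.93 in the stabilized wound and 6.88 in the GFP wound, and was not detected on any tamoxifen array, so that the adenovirus wounds were at least 1.86-fold higher. Its probe was kept only through the adenovirus arrays, so the filter largely set this order. Aim2, the DNA sensor of the inflammasome, was near background, at 5.98 in the stabilized wound, 6.38 in the GFP wound, 6.10 and 5.92 in the knockdown wounds, and 6.05 and 5.80 in the tamoxifen controls at ILMN_1223868. At its other probe the adenovirus wounds were at least 1.19-fold higher than the tamoxifen wounds, which did not detect it. That probe too was kept only through the adenovirus arrays, so the filter largely set this order as well.

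**Figure D2:**
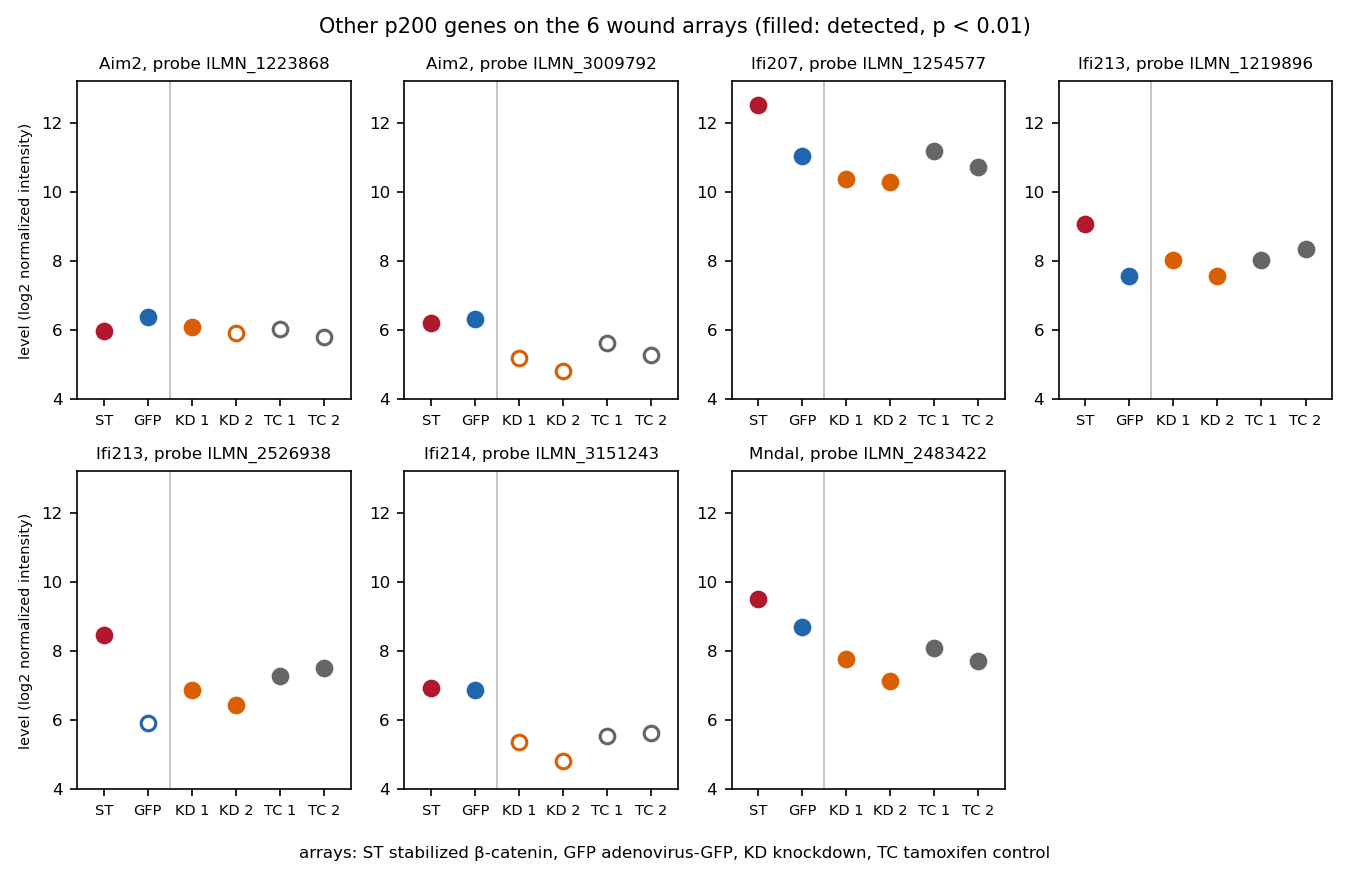
Log2 normalized intensity (vertical axis) of each detected probe of the other p200 genes on the 6 arrays, 1 point per array, filled where the detection p was under 0.01 and open where it was not. Ifi207 reads 11.05 on the GFP array, above both knockdown arrays, while Ifi213 at ILMN_2526938 reads 5.91 there, under all others.

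Of the 5 measured genes, 4 had a higher value in the stabilized than in the GFP wound and 2 of these by at least 2-fold, against 3.53% of all genes at least 2-fold higher. Under median centring Mndal passed 2-fold as well, at 2.66-fold. That scaling moved the median of all probes to 0.58 and the number of probes at least 2-fold higher from 785 to 2836. Under quantile normalization the median difference of the 5 genes in the adenovirus pair was 0.80 log2 units, against 0.039 over all genes. In the knockdown comparison 4 were lower and 1 was higher, with a median of -0.44 against 0.016 over all genes, and none passed limma's test. The values were -0.62 ± 0.20 for Ifi207 (SE, adjusted p of 0.406 in limma's test), -0.40 ± 0.23 for Ifi213, -0.44 ± 0.27 for Mndal and 0.08 ± 0.17 for Aim2. Ifi214, counted among the lower, was at background in all 4 of these wounds.

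Along chromosome 1 the RefSeq order of the cluster runs from Aim2 through Ifi214, Ifi213, Ifi207, Ifi204, Mndal and Ifi202b to Ifi205, naming the measured genes only. Ifi202b and Ifi205 are the last genes of the cluster on that side, with 1 annotated pseudogene between them. Their differences between the stabilized and the GFP wound, -0.04 and 5.50 log2 units at the brightest probes, were at opposite ends of those of the cluster apart from Aim2 at -0.40. Beyond Ifi205, Fh1, which encodes the fumarase of the citric acid cycle, differed by 0.04, and the 4 measured genes after it by 0.21 to 0.48. On the Aim2 side, Dusp23, a phosphatase gene, differed by 1.07, Cadm3 by 1.61 in measured values, with 4.92 on the GFP array and near background there, and the remaining 3 by -0.02 to 0.63. In the knockdown comparison the measured cluster genes ran from -0.93 for Ifi205 to 0.08 for Aim2, and the neighbours from -0.66 for Vsig8 to 0.79 for Fcer1a, a mast cell receptor gene. The cluster was not tested against its neighbours.

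**Figure D3:**
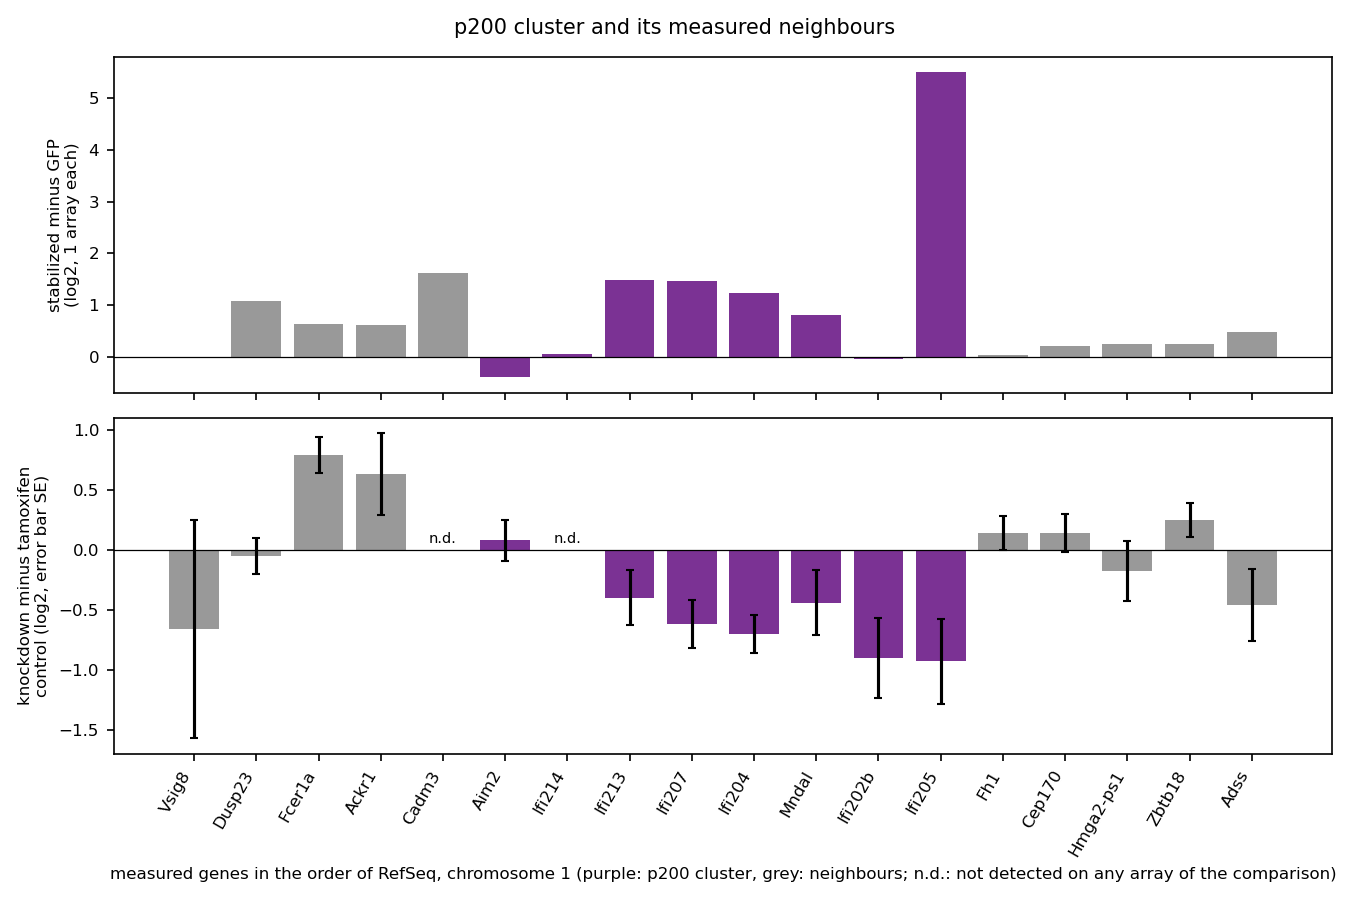
Log2 differences (vertical axes) of the brightest probe of each measured p200 gene and of 5 measured neighbours on each side, in RefSeq gene order on chromosome 1 (horizontal axis), for the stabilized minus the GFP wound (upper panel, 1 array each) and for knockdown minus tamoxifen control wounds (lower panel, bars with SE from limma, 2 arrays each). Ifi205 stands at 5.50 in the upper panel while its neighbours Ifi202b and Fh1 lie at -0.04 and 0.04.

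Other interferon-stimulated genes were set beside the family, as a list of 30 of which 29 were matched and 23 measured. Of these, Mx1, Oas3 and Oas1a were at background on all 4 tamoxifen arrays and were kept only through the adenovirus arrays, so the counts against the tamoxifen arrays leave them out. Both adenovirus wounds lay above all 4 tamoxifen wounds in 19 of the other 20 genes, against 13% of all genes. The exception, Trim30a, which was singled out after its values were seen, read 8.82 in the stabilized wound and 9.55 in the GFP wound, against 8.86 in the second tamoxifen control. Relative to the mean of the 4 tamoxifen arrays, the 20 genes had a median of 1.46 log2 units in the stabilized wound (0.22 to 2.83) and of 1.31 in the GFP wound (0.75 to 2.67). Ifi202b at ILMN_3085992 stood within those ranges, at 2.31 in the stabilized wound and 2.35 in the GFP wound. Its probe ILMN_3014753, at background in the tamoxifen wounds, read 5.72 in the stabilized wound and 5.63 in the GFP wound. Like Mx1, Oas3 and Oas1a, that probe was kept only through the adenovirus arrays, so its place above the ranges is not a like comparison. Ifi205 at ILMN_2437969 stood within the range in the stabilized wound, at 1.48, and outside it in the GFP wound, at -4.02.

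The GFP array was the lowest in 0 of the 23 interferon-stimulated genes, against 23.7% of all genes. This count says little for Mx1, Oas3 and Oas1a, which were kept only through the adenovirus arrays. In the other 20 genes the GFP array was not the lowest either. Between the stabilized and the GFP wound the median difference of all 23 genes was 0.04 log2 units, against 0.039 over all genes. Of the 23, 13 were higher and 10 lower, and Mx1, Oas3 and Oas1a were among the higher, at 0.52, 0.51 and 0.22. At least 2-fold apart were 0, against 3.53% of all genes at least 2-fold higher and 5.01% lower. The low GFP signal of Ifi205 was thus not seen in this list. In the knockdown comparison 18 of the 20 detected genes were lower, against 47.1% of all genes, and 2 higher, with a median of -0.45, and 0 passed limma's adjusted threshold. Relative to each gene's mean over the arrays, the 23 genes had medians of -0.54 and -0.65 in the knockdown wounds, against -0.49 in the first and -0.14 in the second tamoxifen control, so the second control stood apart. Without that control 15 of the 20 were lower, with a median of -0.23. At an unadjusted p under 0.05, 5 were lower, against 4.04% of all genes, and 1 was higher, against 5.79%. Oasl1, an antiviral gene of the OAS family, had the smallest p, with 7.93 and 7.80 in knockdown wounds and 8.43 and 8.73 in tamoxifen controls, a difference of -0.71 ± 0.17 (SE) with an adjusted p of 0.281 in limma's test.

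**Figure D4:**
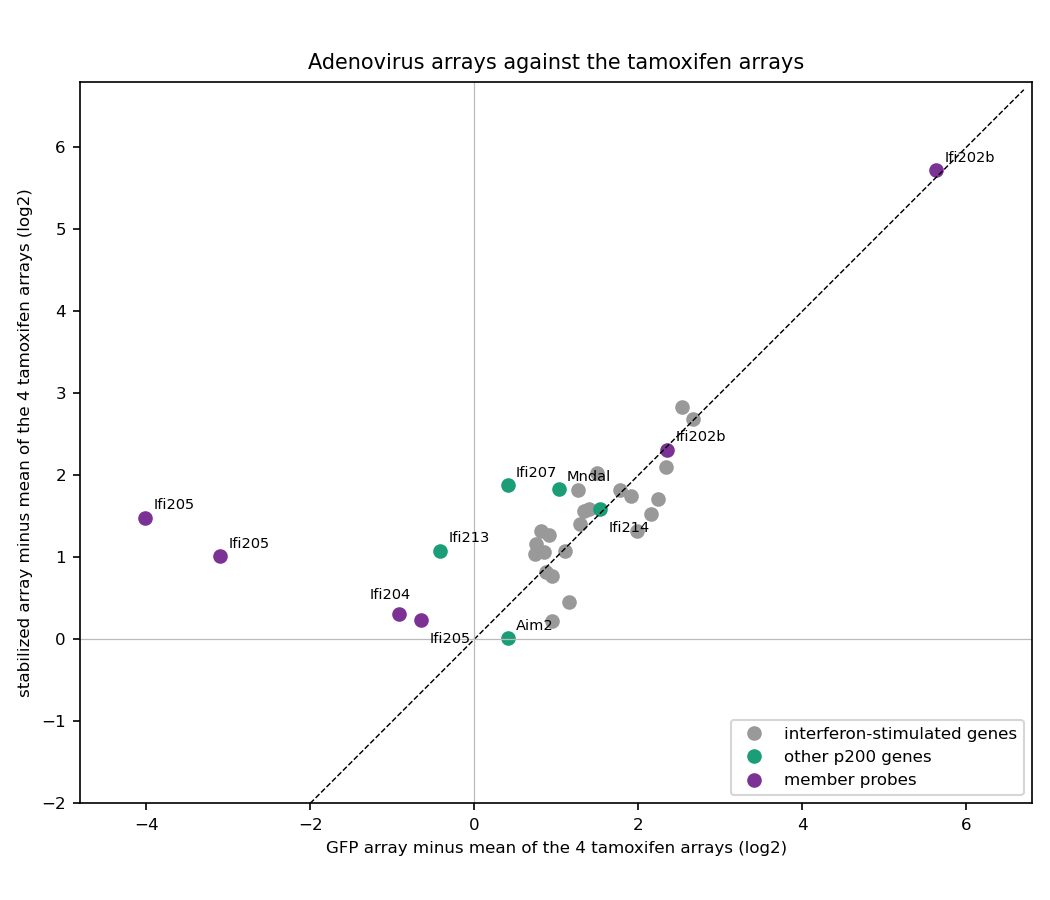
Each point is a probe, placed by its level on the GFP array (horizontal axis) and on the stabilized array (vertical axis), each minus the mean of the 4 tamoxifen arrays in log2 units, with the dashed line where both are equal. The 23 interferon-stimulated genes and Ifi202b lie near the line at positive values, and the Ifi205 probe ILMN_2437969 lies at -4.02 on the horizontal and 1.48 on the vertical axis. Mx1, Oas3, Oas1a and the Ifi202b probe ILMN_3014753 were kept only through the adenovirus arrays, so the filter largely set their positive values.

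Genes through which interferons signal and genes of DNA sensing were read in the same way. Of 12 measured genes of DNA sensing and the inflammasome, 4 were higher and 8 lower in the stabilized than in the GFP wound (median -0.18 log2 units), and 9 were higher and 3 lower in the knockdown (median 0.06). Both adenovirus wounds lay above all 4 tamoxifen wounds in 7 of these 12 genes, and in 7 of 11 measured interferon receptor and signalling genes, against 13% of all genes. These counts include Nlrp3, which only the GFP array detected, and genes with narrow margins. Gsdmd read 9.61 in the stabilized wound and 9.60 in the second knockdown wound. Sting1 read 7.98 in the GFP wound and 7.97 in the first tamoxifen control. Irf8 read 8.35 in the stabilized wound and 8.34 in the first knockdown wound. Pycard, the adaptor gene that IFI205 is known to act on, read 7.65 in the stabilized wound, 7.81 in the GFP wound, 8.56 and 8.94 in the knockdown wounds, and 8.17 and 8.68 in the tamoxifen controls. Its knockdown difference was 0.33 ± 0.24 (SE, adjusted p of 0.694 in limma's test), and its levels did not follow the order of Ifi205. An action of IFI205 on Pycard was not tested by these values of whole wounds. Il1b, the cytokine that inflammasomes release, read 13.28 in the stabilized wound and 14.64 in the GFP wound, the only member of this list at least 2-fold apart.

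Among the receptor and signalling genes the median difference was -0.01 between the stabilized and the GFP wound and -0.06 in the knockdown. Ifngr2, a chain of the interferon gamma receptor, was the exception in the adenovirus pair, at 8.97 in the stabilized wound and 12.31 in the GFP wound, against 9.71 and 9.81 in knockdown wounds and 10.38 and 10.04 in tamoxifen controls. Its level was highest on the array where Ifi205 was lowest, which is a single array, and a relation of Ifngr2 to Ifi205 was not tested. Irf8, a transcription factor gene of the myeloid lineage, was higher in both knockdown wounds (8.34 and 8.33) than in the tamoxifen controls (7.96 and 7.67), with a difference of 0.52 ± 0.16 (SE) and an adjusted p of 0.401 in limma's test.

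Markers of cells that can hold p200 RNA also differed between the arrays. In whole wounds, fewer cells of a type and less RNA per cell cannot be told apart. Of 12 macrophage markers 10 were measured, and the GFP array was the lowest in 6 of these, against 23.7% of all genes. It was the lowest by at least 2-fold in 0. The gaps to the next array ran from 0.03 log2 units for Ccr2, which neither adenovirus array detected, to 0.96 for C1qb. Their summed intensity was 55527 in the stabilized wound, 37188 in the GFP wound, 62724 to 72485 in the knockdown wounds and 52890 to 71601 in the tamoxifen controls. The macrophage markers furthest apart in the adenovirus pair were Cd14, at 12.37 in the stabilized wound and 13.99 in the GFP wound, and Mrc1, at 12.35 in the stabilized wound and 11.13 in the GFP wound. Over the 9 macrophage markers detected in the pair the median difference was 0.49 log2 units.

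Neutrophil markers went the other way in the adenovirus pair, with a median of -1.61 log2 units over the 8 detected in the pair, of 9 measured. Their summed intensity was 86082 in the stabilized wound and 117360 in the GFP wound, against 70518 and 79532 in knockdown wounds and 89199 and 88896 in tamoxifen controls. Dendritic cell markers summed to 36890 in the stabilized wound, 19161 in the GFP wound, 40248 and 35456 in the knockdown wounds, and 28170 and 18672 in the tamoxifen controls. These sums are of intensities before normalization, and the GFP array was dimmer as a whole. On the normalized scale the 3 dendritic cell markers detected in the pair had a median difference of 0.42 log2 units between the stabilized and the GFP wound. In the knockdown comparison the macrophage median was 0.03, the neutrophil median -0.02, the dendritic cell median 0.62 and the lymphocyte median 1.11, in log2 units. The dendritic cell and lymphocyte medians rest on 4 measured markers each. Fibroblast markers, 6 of 6 measured, had a median of 0.36 in the adenovirus pair and -0.13 in the knockdown comparison, and keratinocyte markers, 6 of 6, of -0.13 and -0.21. Adipocyte markers, 2 of 5 measured, had medians of -0.23 and 0.99 in these comparisons, and skeletal muscle markers, 6 of 6, of -2.25 and 1.34. The part of these cell types in the values of the p200 genes was not tested.

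The genes most like each member over the 6 arrays were taken from 2822 candidates whose levels spanned at least 1 log2 unit, by Pearson's r as a description. For Ifi205 they were Plpp3 (r = 0.98), a lipid phosphatase gene, Efhd1 (0.973), Acsf2 (0.965), Agtr1a (0.962), an angiotensin receptor gene, and Tnrc6b (0.961), and 7 candidates passed an r of 0.95. Efhd1 showed the same order of arrays as Ifi205, at 8.67 in the stabilized wound, 5.81 in the GFP wound, 6.88 and 7.60 in the knockdown wounds, and 8.39 and 7.90 in the tamoxifen controls. For Ifi204 the genes were Ppp2r2a (0.984), Pstpip2 (0.965), Akr1c18 (0.961), Plpp3 (0.956) and Efhd1 (0.949), so that Plpp3 and Efhd1 stood in both lists.

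For Ifi202b the nearest genes were Serpinb2 (0.999), the gene of a plasminogen activator inhibitor, Slc39a14 (0.992), Fcgr1 (0.99), an Fc receptor gene of macrophages, Pdia6 (0.988) and Calb2 (0.987), and 74 candidates passed an r of 0.95. Serpinb2 read 13.56 in the stabilized wound, 13.42 in the GFP wound, 9.33 and 10.08 in the knockdown wounds, and 11.49 and 10.43 in the tamoxifen controls. With 6 arrays in 4 groups, such an r mostly restates which groups are high, and none of the 5 genes nearest to Ifi202b was among those nearest to Ifi205 or Ifi204.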

How the data were processed

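RNA of 6 wounds was hybridized to 6 Illumina bead arrays of a single colour. Per the file headers, the table deposited by the authors gives for each probe an average bead intensity, not normalized between arrays, with a detection p-value per array. A second deposited table holds log2 values of the same arrays, whose medians lay at 5.12 and which differed by at most 0.0916 from the log2 values computed here. The submitters' processing notes name R 2.14 and limma, with settings not given in the sources used here.

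Intensities were background-corrected with limma 3.58.1 (R 4.3.3) from the detection p-values (neqc), with an offset of 16, then log2 and quantile normalization over the 6 arrays. The offset shrinks differences of dim probes. Probes detected (p below 0.01) on any array entered the test. Knockdown was compared with tamoxifen control with limma (lmFit, eBayes) on 4 group means (2 residual and 3.06 prior degrees of freedom), two-sided, with Benjamini-Hochberg adjustment over 18854 probes. The adenovirus arrays, 1 each, had no test. Neither slides nor scan days were given to test as batches, and precision is limited by the number of arrays. For an "at least" bound, the undetected arrays were given the lowest signal of any detected probe, or the probe's own where that was higher.

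The members, the gene lists and the alternatives were chosen with earlier results of these data known. The counts of interferon-stimulated genes without those at background, and without 1 array each, were added after seeing the data. The text names every member and other p200 probe by count or value, and of each further list up to 4 genes by the smallest p and up to 4 by the largest adenovirus difference, with Ccr2, Mx1, Oas3 and Oas1a named besides because arrays did not detect them. Gene lists and neighbours use the brightest probe of a gene. Symbols were updated through RefSeq (GRCm38.p6, 34807 probes matched). Replicate numbers did not pair the samples. Of these steps only the limma test of the knockdown comparison was tried on simulated data.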

Additional observations from a re-analysis of the deposited data

How the results depend on the processing

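The knockdown comparison called 0 probes with adjusted p under 0.05 in limma under the other scalings, filters, priors and sample choices, and with the replicate number as a block (0 called, 2341 at an unadjusted p under 0.05 against 1942). Leaving out 1 array in turn gave 0 to 58 called probes, the 58 arising without the first tamoxifen control, and no member was among them. Same-numbered arrays of the tamoxifen groups did not deviate together (r = 0.07), so the block has no basis in the design. The knockdown differences of the members kept their sign under each alternative run, apart from Ifi205 at ILMN_2680076, which turned to 0.13 without the first knockdown array (-0.50 with it, and as low as -1.12 without the second). Without 1 array each, Ifi205 ran from -1.32 to -0.55 at ILMN_2437969 and from -1.21 to -0.37 at ILMN_1245200, Ifi202b from -1.29 to -0.50 at ILMN_3085992 and Ifi204 from -0.83 to -0.58, and Ifi204 came to -0.24 without background correction. Of 20 interferon-stimulated genes, 15 to 19 were lower in the knockdown without 1 array each, against 18 with all.

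In the adenovirus pair the counts depended on the processing, and the cause was not tested. The stabilized wound was at least 2-fold higher in 785 probes, but in 152 without background correction, 347 with an offset of 50, 2836 with median centring and 321 where both arrays had to detect the probe. It was at least 2-fold lower in 1082 probes, but in 447 without background correction, 695 with median centring and 534 with detection on both arrays. The higher probes made up 42% of these, and 25.4% without background correction, 31.1% with the larger offset, 80.3% with median centring and 32.9% with cyclic loess. The member probes lowest on the GFP array by at least 2-fold were 2, and 1 without background correction, where ILMN_1245200 lay 0.90 below the next array. For Ifi205 at ILMN_2437969 the fold of stabilized over GFP ran from 19.8 without background correction to 61.7 with median centring.

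Dim probes limit the reading. Ifi204 and the third Ifi205 probe lie near the background, where a fold is a bound. With 1 array in each adenovirus group the spread between animals is unknown there.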
